A study of Homo sapiens with 16 samples.

Results

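The tripartite motif (TRIM) family was examined in U251 and U343 cells, both established human glioblastoma lines, given either a control mimic or a mimic of miR-137. Members were chosen by symbol alone, as every gene of the deposited tables named TRIM followed by a number, with TRIM16L included, and the rule used no measured value. It found 60 of 20626 genes, of which 59 were in the U251 tables of 20314 genes and 1, TRIM75, was listed for U343 only. Cells of either line received 25 nM of mimic and were collected after 48 hours. RNASeq measured total RNA, and RIPSeq measured RNA that was immunoprecipitated with poly(A) binding protein (PABP), which sits on the tails of messenger RNAs. Each combination of cell line, assay and mimic gave 2 libraries, 16 in all, and the labels do not say whether the 2 came from separate cultures. A mimic adds a mature microRNA from outside, so the comparison is between transfected cells and not between cells with and without their own miR-137.

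The typical TRIM protein has a RING finger, the part that makes it a ubiquitin ligase, followed by B-boxes and a coiled coil through which it pairs, although some members lack the RING. What differs is the C-terminal part. A PRY-SPRY domain is found in many antiviral members, NHL repeats in others, a COS box in those that bind microtubules, and a PHD finger with a bromodomain in the chromatin cofactors. Several members are interferon-stimulated genes and act in the RIG-I pathway or against retroviral capsids, while others are best known from neurons, muscle or transcriptional silencing. The microRNA binds messages mainly through its seed, bases 2 to 8, which are in capitals in the mature sequence of RefSeq (GRCh38.p14, chr1:98046091-98046113, minus strand), shown because it is the molecule that the mimic stands for.
hsa-miR-137-3p: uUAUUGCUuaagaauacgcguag
Matches to this seed in the members' transcripts were not analysed here.

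Libraries held from 10156675 counted reads in U251 RNASeq to 45134766 in U343 RNASeq. Levels are given as CPM, read counts scaled to a common library size with TMM factors within an experiment, and a lower CPM in bulk RNA cannot tell fewer expressing cells from less RNA per cell. CDK6, a cell cycle kinase and a known target of miR-137, was at 1541 and 1603 CPM in the U251 RNASeq controls and at 149 and 122 after the mimic. In U343 RNASeq it was at 545 and 643 in the controls against 81.3 and 91.6. The glioma gene vimentin was abundant in both lines and the leukocyte gene PTPRC was under 1 CPM in every library. Of 14 genes listed for cells that the cultures should lack, 3 passed the filter in U251 RNASeq and 7 in U343 RNASeq. The endothelial gene CDH5 had 698 and 1032 reads in the U343 RNASeq controls. The neuronal gene SYT1 had 545 and 558 in those of U251. The muscle gene MYH7 was called higher after miR-137 in U343 RNASeq and U343 RIPSeq. The astrocyte gene GFAP was at 31.2 and 32.8 CPM in the U251 RNASeq controls. In those of U343 it was at 4489 and 4709.6. After miR-137, 5 of 6 glioma genes (CD44, GFAP, VIM, S100B and NES) fell in U251 RNASeq, where 29.0% of all genes were called lower. The median log2 fold change was -1.22 over the 6 and 0.02 over all genes. By contrast, NES and CD44 rose in U343 RNASeq, where 8.31% of all genes were called higher. In U343 RIPSeq NES rose and GFAP fell, where 28.5% of all genes were higher and 27.8% lower. The part of this shift in the TRIM results was not tested.

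One library stood apart from its label in a way that bears on the TRIM genes. The interferon-linked list used below was drawn from textbook interferon or antiviral roles, with earlier results of these data known. In U343 RNASeq, the 10 tested interferon-linked members had a median log2 ratio to the control mean of -0.32 in replicate 1 of the miR-137 group and of 2.66 in replicate 2. For 12 genes of the interferon response the medians were 0.21 and 5.88. The 5 known miR-137 targets looked at, CDK6, KDM1A, EZH2, CSE1L and MITF, were lower than the controls in both libraries, with medians of -1.74 and -1.58. Both libraries thus carried the lower target levels, while the interferon response genes were high in 1 of them, and U343 RNASeq results are given with and without replicate 1 where it matters. In U251 RIPSeq it was the controls that differed, with a median absolute log2 ratio of 0.54 between them against 0.07 between the miR-137 libraries.

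**Figure D1:**
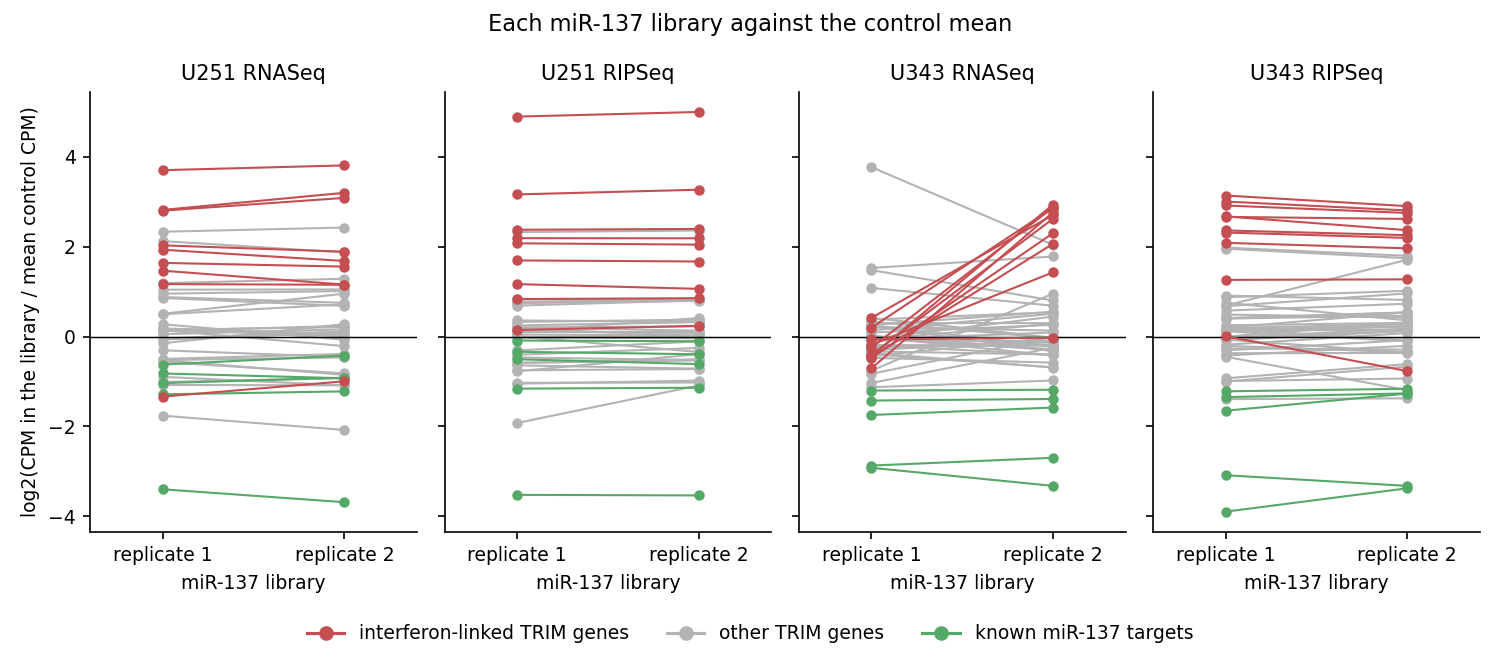
Log2 ratio of CPM in each miR-137 library to the mean of the 2 control libraries, with a line joining the 2 values of each gene, for interferon-linked TRIM genes (red), other TRIM genes (gray) and known miR-137 targets (green). In U343 RNASeq the red points lie between -0.71 and 0.42 in replicate 1 and up to 2.94 in replicate 2, whereas the green points stay under 0 in both.

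In U251 RNASeq, 38 members passed the filter on low counts, 17 were higher and 10 lower after miR-137 (edgeR, adjusted p under 0.05), where 28.7% of all genes tested were called higher and 29.0% lower. In U343 RIPSeq, 21 of 46 members were higher and 6 lower, against 28.5% and 27.8% of all genes. In U343 RNASeq, 2 members, TRIM9 and TRIM16, were higher and 2, TRIM23 and TRIM45, lower, against 8.31% and 11.7%. Without replicate 1 of the miR-137 group there were 15 higher and 5 lower, against 19.3% and 20.3%, and without either control library no gene of the table was called. In U251 RIPSeq, 3 of 39 members were higher, TRIM14, TRIM21 and TRIM22, and 0 lower, against 0.944% and 0.263%. Another 10 members had an unadjusted p under 0.05 there (13 in all), where 2828 of all 14087 genes had one. DESeq2 called 7 members higher, and its share over all genes is not given here. Single controls decided the edgeR count. Without control replicate 1 it was 15 higher and 13 lower of 40, against 32.8% and 35.3% of all genes, and without control replicate 2 it was 25 and 13 of 44, against 40.2% and 34.2%. The remaining library of a group is then taken to vary like the other group. A gene can pass the filter through the group where it is high, so these counts describe the tested members only.

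Over the 4 experiments, 46 members were tested at least once and 37 in all. Of these 46, 23 were higher in at least 1 experiment and 13 lower in at least 1, with TRIM16 the member on both sides, where 38.6% of all 16213 genes tested were higher and 37.0% lower in at least 1. No member was called in the same direction in all 4. U251 RNASeq and U343 RIPSeq, which share no library, had 15 members higher in both and 4 lower in both, of 38 tested in both. Over all genes these shares were 15.1% and 16.5%.

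Not every call outlasted the removal of a library. The share of all called genes that held is not given here, so the counts describe the members alone. In U251 RNASeq 23 of 27 calls held in all 4 fits with 1 library left out, and in U343 RIPSeq 19 of 27. In U251 RNASeq TRIM59 was lost in all 4 (adjusted p up to 0.19), TRIM24 without control replicate 2 or miR-137 replicate 2 (up to 0.365), TRIM36 without miR-137 replicate 1 (0.0602) and TRIM52 without miR-137 replicate 2 (0.0782). In U343 RIPSeq the rises of TRIM13 and TRIM33 and the fall of TRIM61 were lost in all 4, with adjusted p up to 0.144, 0.258 and 0.188. The falls of TRIM7, TRIM37 and TRIM59 held there in 1 of 4 each (up to 0.112, 0.092 and 0.176), and TRIM16 was lost without control replicate 2 (0.0542) and TRIM41 without control replicate 1 (0.0541). TRIM52 and TRIM61 were named after their values were seen.

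**Figure D2:**
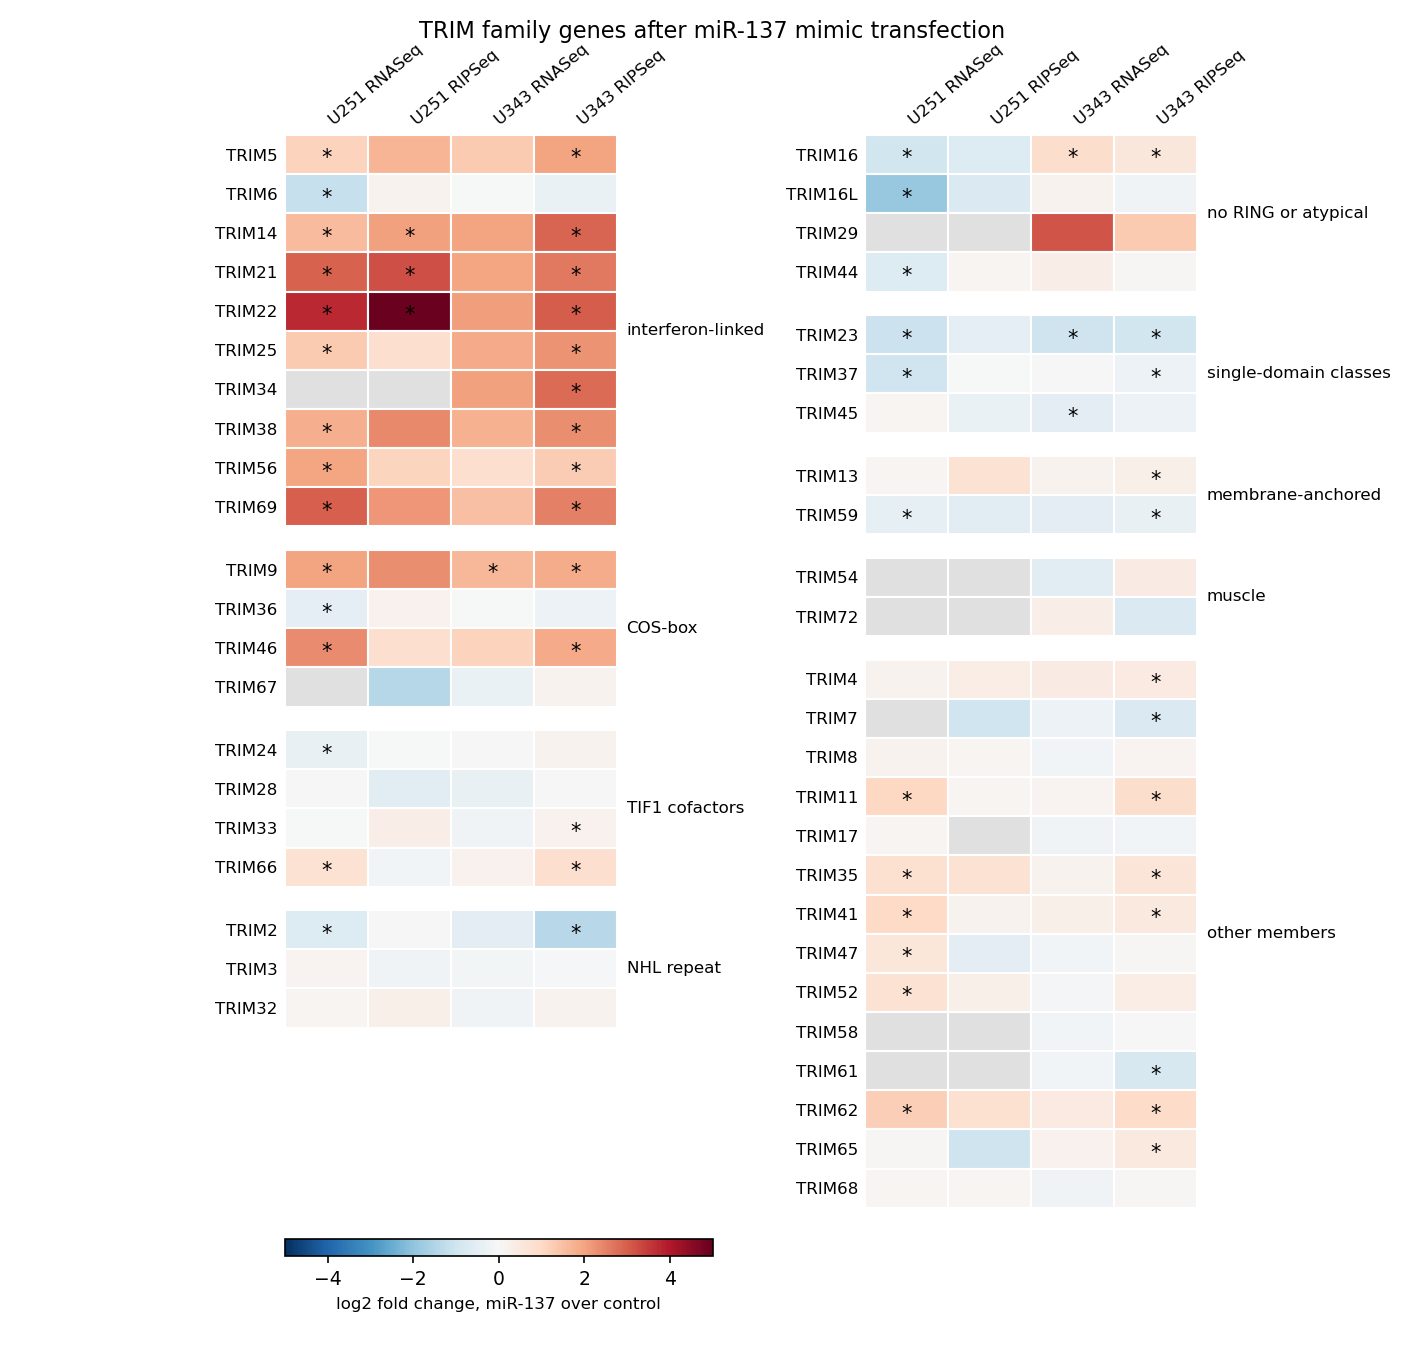
Log2 fold change of miR-137 over control (color) for the 46 TRIM genes tested in at least 1 experiment, grouped by known role, with an asterisk where edgeR's adjusted p was under 0.05 and gray where the gene did not pass the filter. Every tested value of the interferon-linked block other than those of TRIM6 is above 0, with TRIM22 in U251 RIPSeq the highest at 4.94, and TRIM9 and TRIM46 stand out below it.

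Of the interferon-linked members, 8 of 9 tested in U251 RNASeq rose and TRIM6 fell, with a median log2 fold change of 1.81, where the median over all genes was 0.02. In U343 RIPSeq, 9 of 10 rose and TRIM6 did not pass the test, with a median of 2.41 against 0.0. In U251 RIPSeq the 3 members called were TRIM14, TRIM21 and TRIM22, and the median was 2.06 against -0.02. How many were called there depended on which library was left out. Over those fits the log2 fold change ran from 4.50 to 5.67 for TRIM22 and from 3.18 to 3.34 for TRIM21. For TRIM14 it ran from 2.06 to 2.15, and for TRIM6 from -0.27 to 0.96. In U343 RNASeq, 0 of 10 were called with both miR-137 libraries and 9 of 10 were higher without replicate 1.

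TRIM22, an interferon-stimulated gene that restricts several viruses, showed the highest fold change of the family in 3 of the 4 experiments. In U251 RNASeq it was at 16.5 and 19.3 CPM in the controls and at 234 and 251.4 after miR-137, a 13.5-fold increase (log2 3.76 ± 0.15 SE, n = 2 per group, adjusted p = 2.72e-10). In U251 RIPSeq the controls were at 8.15 and 17.2 and the miR-137 libraries at 377 and 405 (log2 4.94 ± 0.48, adjusted p = 0.034). The groups were far apart in both assays. In U343 RIPSeq the values were 90.8 and 92.1 against 805 and 684 (log2 3.03 ± 0.12, adjusted p = 2.09e-06). In U343 RNASeq the controls were at 121 and 86.7, and the miR-137 libraries at 119.6 and 757. Replicate 1 lay inside the control range there and replicate 2 above it, giving a log2 fold change of 2.07 ± 0.89 (adjusted p = 0.174) with both and of 2.85 ± 0.19 (adjusted p = 0.00017) without replicate 1.

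TRIM21, the cytosolic receptor for antibody-coated viruses, was at 9.39 and 8.38 CPM in the U251 RNASeq controls and at 62.0 and 75.4 after miR-137, a 7.73-fold increase (log2 2.95 ± 0.16, adjusted p = 7.64e-09). In U251 RIPSeq it went from 8.75 and 9.16 to 80.2 and 86.3 (log2 3.22 ± 0.26, adjusted p = 0.0256), and the call held whichever library was left out. U343 RIPSeq showed 35.8 and 33.1 against 218 and 211 (log2 2.64 ± 0.09, adjusted p = 1.06e-06). U343 RNASeq gave 34.1 and 29.8 against 42.6 and 208, so here replicate 1 also lay above both controls. TRIM21 was the 1 interferon-linked member called higher when replicate 2 alone was left out.

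TRIM14 has no RING and works as an adaptor of the mitochondrial antiviral protein MAVS. It rose 3.03-fold in U251 RNASeq, from 21.5 and 27.0 to 75.5 and 71.4 CPM (adjusted p = 1.04e-06), and 4.17-fold in U251 RIPSeq, from 26.3 and 23.2 to 104 and 102 (adjusted p = 0.0481). The second call was lost when either miR-137 library was left out. In U343 RIPSeq the rise was 7.51-fold, from 16.6 and 17.3 to 136 and 118 (adjusted p = 1.1e-06), while U343 RNASeq had 17.2 and 14.4 against 13.3 and 115. TRIM14 overlaps NANS in the deposited hg18 coordinates, so reads from the shared stretch may be counted for either.

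TRIM25, the ligase that ubiquitinates RIG-I, rose 2.50-fold in U251 RNASeq, from 74.2 and 54.3 to 177 and 143 CPM (adjusted p = 1.53e-05), and 4.78-fold in U343 RIPSeq, from 40.7 and 40.1 to 201 and 185 (adjusted p = 1.92e-06). Its U251 RIPSeq values were 101 and 83.7 against 165 and 167 (log2 0.84 ± 0.24, adjusted p = 0.166). The control ranges were below the miR-137 ranges in all 3. U343 RNASeq had 49.2 and 50.8 in the controls, 30.6 in replicate 1 of the miR-137 group and 339 in replicate 2. With replicate 2 left out TRIM25 was called lower (log2 -0.71), and with replicate 1 left out higher (log2 2.76 ± 0.09, adjusted p = 1.31e-05).

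TRIM5, which recognizes retroviral capsids, behaved likewise, with 47.8 and 41.5 CPM in the U343 RNASeq controls, 32.6 in replicate 1 and 187 in replicate 2. It was called lower (log2 -0.46) without replicate 2 and higher (log2 2.06 ± 0.11, adjusted p = 8.74e-05) without replicate 1. In U251 RNASeq it rose 2.24-fold, from 52.3 and 51.2 to 116 and 115, and in U343 RIPSeq 4.07-fold, from 45.3 and 47.0 to 196 and 180.0. TRIM5 overlaps TRIM78P in the hg18 coordinates, so reads from the shared stretch may be counted for either. TRIM2 overlaps ANXA2P1 and TRIM37 overlaps PPM1E in the same way.

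TRIM38, a regulator of Toll-like receptor signaling, rose 3.51-fold in U251 RNASeq (25.7 and 26.5 to 99.5 and 83.7 CPM) and 4.95-fold in U343 RIPSeq (18.0 and 15.1 to 85.0 and 79.1). In U251 RIPSeq it was at 13.5 and 19.8 in the controls and at 86.6 and 87.7 after miR-137, with an adjusted p of 0.0559. TRIM56, which takes part in STING and TLR3 responses, rose 3.89-fold in U251 RNASeq (10.6 and 9.91 to 41.9 and 38.0) and 2.41-fold in U343 RIPSeq (45.3 and 45.5 to 109 and 109.8).

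TRIM69, an interferon-induced restriction factor, was a low-level gene in every group. It was at 0.319 and 0.551 CPM in the U251 RNASeq controls and at 3.07 and 3.99 after miR-137 (log2 2.99 ± 0.38, adjusted p = 2.01e-05). The U343 RIPSeq values were 0.333 and 0.221 against 1.77 and 1.43 (log2 2.50 ± 0.30, adjusted p = 0.000283).

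TRIM6, whose unanchored ubiquitin chains activate the kinase IKKε, was the interferon-linked member that went the other way. In U251 RNASeq it fell 2.22-fold, from 16.4 and 16.9 to 6.59 and 8.34 CPM (log2 -1.15 ± 0.18, adjusted p = 0.000108). Its U251 RIPSeq values overlapped, at 2.96 and 6.52 against 5.25 and 5.59. In U343 it was under 1 CPM in all 8 libraries.

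TRIM6, TRIM34, TRIM5 and TRIM22 lie next to each other on chromosome 11 (hg18, chr11:5573923-5688669), and TRIM34, a relative of TRIM5, could be compared in U343 only. In U343 RIPSeq it rose 7.13-fold, from 5.99 and 5.73 to 44.2 and 39.4 CPM (adjusted p = 1.64e-06), and in U343 RNASeq it was at 6.78 and 5.46 against 4.51 and 46.9. In U251 RNASeq 1 control read and 9 miR-137 reads were counted, a ratio of 12.9 with an exact 95% interval from 1.78 to 565, which covers counting error only. The 8 U343 libraries gave 6473 reads to TRIM34 and 6454 to the read-through gene TRIM6-TRIM34, which spans it, while the 8 U251 libraries gave 13 and 1. Whether the tables of the 2 lines treat shared reads alike was not tested, and TRIM34 is not compared between lines.

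**Figure D3:**
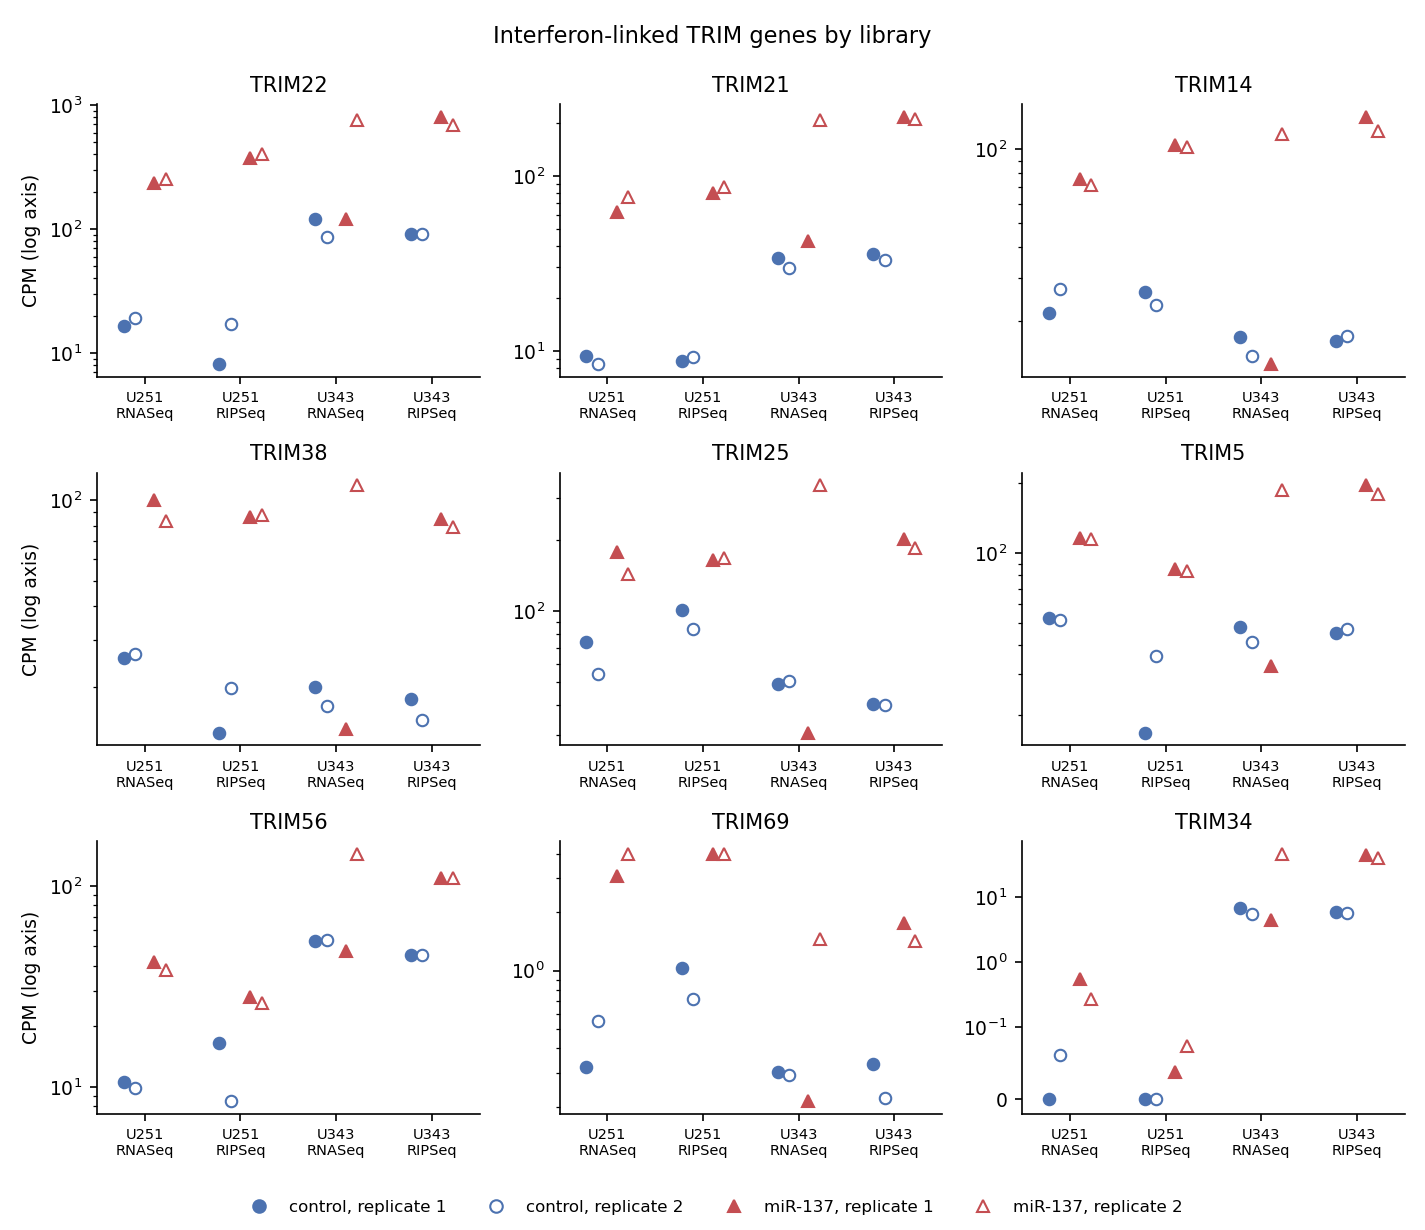
CPM of 9 interferon-linked TRIM genes in each library of the 4 experiments on log axes (linear under 0.1 for TRIM34), with controls as circles, miR-137 libraries as triangles, replicate 1 filled and replicate 2 open. In U343 RNASeq the filled triangle lies near the controls and the open one above them, as for TRIM22 at 119.6 and 757 CPM.

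The promoters of some of these genes hold the core of an interferon-stimulated response element. The letters GAAANNGAAA were searched on both strands in RefSeq promoters (GRCh38.p14), from 250 bases before to 50 after the start. They occur in 3.57% of all 35116 windows and, by gene, in 4.38% of 27305 genes. Of the 60 members, 46 had a promoter in the table. The 14 without one were TRIM4, TRIM8, TRIM11, TRIM13, TRIM16L, TRIM22, TRIM24, TRIM28, TRIM29, TRIM35, TRIM43, TRIM45, TRIM55 and TRIM60. The core was found in 5 of 9 interferon-linked members (TRIM5, TRIM14, TRIM21, TRIM34 and TRIM69) and in 3 of 37 others (TRIM2, TRIM16 and TRIM44). These counts depend on which members were listed, and TRIM65, a ligase of the RNA sensor MDA5, was counted with the others. TRIM21 holds overlapping copies. The windows of 30 bases below, written along the gene's own strand with the core in capitals, are shown so that the letters behind these counts can be compared. They are chr9:98119229-98119258 (minus strand) for TRIM14, chr11:4393666-4393695 (minus) for TRIM21, chr11:5685082-5685111 (minus) for TRIM5, chr11:5624901-5624930 (plus) for TRIM34, chr15:44736456-44736485 (plus) for TRIM69 and, from the other members, chr4:153151936-153151965 (plus) for TRIM2 and chr17:15683012-15683041 (minus) for TRIM16.
TRIM14: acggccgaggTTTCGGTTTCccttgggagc
TRIM21: cttctgagcgGAAACTGAAAGTGAAAtagg
TRIM5: atagtttatcTTTCACTTTCctgccctgag
TRIM34: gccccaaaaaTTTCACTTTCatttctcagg
TRIM69: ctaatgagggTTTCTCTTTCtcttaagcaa
TRIM2: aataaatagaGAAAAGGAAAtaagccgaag
TRIM16: acagaggtaaGAAATAGAAAtaaagggtcc
In TRIM14, TRIM5, TRIM34 and TRIM69 the core reads on the opposite strand, as TTTCNNTTTC. A match of these letters is a description, and TRIM25, TRIM38, TRIM56 and TRIM6 had none in this window.

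Genes around these members were read from lists of the interferon response and of RIG-I signaling. All 12 interferon response genes were called higher in U251 RNASeq (28.7% of all genes), 10 of 12 in U251 RIPSeq (0.944%) and 11 of 12 in U343 RIPSeq (28.5%). In U343 RNASeq 0 of 12 were called, where 8.31% of all genes were higher. Their median log2 fold change there was 4.94, and 5.88 without replicate 1 of the miR-137 group. RIG-I itself (DDX58) went from 35.5 and 35.8 to 884 and 781 CPM in U251 RNASeq and from 7.09 and 7.45 to 518 and 494 in U343 RIPSeq. MX1, a classical antiviral GTPase, was not the only gene of the list to separate the lines. By the test of the line difference in RIPSeq, IRF7 had a stronger response in U343. That of MX1, IFIT1, IFIT3 and OAS1 was weaker there, while in RNASeq with all libraries MX1 alone was called. MX1 was at 10.7 and 9.54 CPM in the U251 RNASeq controls and at 939.6 and 953 after miR-137. In U343 RIPSeq it was at 6.96 and 7.89 against 8.43 and 9.34 (log2 0.26 ± 0.13, adjusted p = 0.127), although TRIM22 rose there.

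The RIG-I partners moved less. In U343 RIPSeq 6 of 8 rose (TRAF6, TBK1, RNF135, IRF3, TANK and IKBKG) and TRAF3 fell, against 28.5% and 27.8% of all genes. The changes lay between -0.70 and 0.79 on the log2 scale. In U251 RNASeq 2 of 6 rose (IKBKG and TBK1) and MAVS fell, against 28.7% and 29.0% of all genes. The median log2 fold change of the tested partners was 0.55 in U343 RIPSeq, against 0.0 over all genes. In U251 RNASeq it was 0.03, against 0.02. Whether the partners differ from other genes as a set was not tested. MAVS, the adaptor of RIG-I, went from 151 and 128 to 64.3 and 67.0 CPM in U251 RNASeq. PML, a TRIM protein by structure (TRIM19) that carries another name and so was not a member, rose 7.24-fold in U251 RNASeq (28.2 and 27.6 to 203 and 201 CPM) and 7.56-fold in U343 RIPSeq. U343 RNASeq had 36.6 and 35.0 in the controls and 26.9 and 255 after miR-137, with the same split between libraries.

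Among the members with a COS box, TRIM9 and TRIM46 rose. TRIM9 (hg18, chr14:50511731-50632172), a brain ligase that binds the netrin receptor DCC in growing axons, was at 7.98 and 6.67 CPM in the U251 RNASeq controls and at 31.9 and 26.8 after miR-137 (log2 2.00 ± 0.17, adjusted p = 5.63e-07). In U343 RNASeq it went from 12.1 and 14.2 to 37.8 and 45.2 (log2 1.66 ± 0.15, adjusted p = 0.00841), so both miR-137 libraries were about as high, also the one in which 2 of 10 interferon-linked members lay above the control mean. In U343 RIPSeq it went from 16.9 and 12.5 to 57.0 and 49.2 (log2 1.85 ± 0.15, adjusted p = 4.62e-05). U251 RIPSeq gave 2.83 and 4.15 against 17.5 and 17.9, a log2 fold change of 2.34 ± 0.30 that missed the threshold (adjusted p = 0.0559). The groups did not overlap in any of the 4 experiments. In U343 RNASeq the call of TRIM9 was lost when either control library was left out.

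TRIM46 bundles microtubules at the axon initial segment and had few reads. It was at 0.767 and 0.918 CPM in the U251 RNASeq controls and at 4.24 and 4.53 after miR-137, 27 reads against 98 in all (log2 2.37 ± 0.30, adjusted p = 2.01e-05). U343 RIPSeq had 0.288 and 0.271 against 1.10 and 0.970 (log2 1.88 ± 0.28, adjusted p = 0.000915). The other 2 gave log2 values of 0.83 ± 0.44 in U251 RIPSeq and 1.15 ± 0.45 in U343 RNASeq, past no threshold. TRIM36 fell 1.41-fold in U251 RNASeq (20.3 and 19.3 to 13.8 and 14.4 CPM) and TRIM67, the closest relative of TRIM9, was called in no experiment. MID1, a COS-box protein of the TRIM fold known under its own name, fell in one line and rose in the other. It went from 1085 and 1114 to 478 and 372 CPM in U251 RNASeq (adjusted p = 8.23e-06) and from 118 and 109 to 367 and 382 in U343 RNASeq (adjusted p = 0.00647).

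TRIM23 was the member that fell in most experiments. It carries an ARF-type GTPase domain beside its ligase part. In U251 RNASeq it went from 37.8 and 37.6 to 17.9 and 17.8 CPM, a 2.11-fold decrease (log2 -1.08 ± 0.14, adjusted p = 2.46e-05). In U343 RNASeq it went from 18.3 and 17.1 to 8.10 and 8.98 (log2 -1.05 ± 0.13, adjusted p = 0.0142), with both miR-137 libraries low. The U343 RIPSeq values were 12.8 and 11.0 against 5.99 and 6.23 (log2 -0.96 ± 0.13, adjusted p = 0.000526). In U251 RIPSeq the controls, at 6.26 and 18.4, lay on either side of the miR-137 libraries at 8.92 and 8.57. The sign of TRIM23 there depended on which control was kept, with log2 -1.07 without control replicate 1 and 0.57 without control replicate 2.

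TRIM2, the NHL-repeat ligase of neurofilament light chain, fell in U343 RIPSeq and U251 RNASeq. In U343 RIPSeq it went from 239 and 225 to 88.6 and 89.7 CPM, a 2.61-fold decrease (log2 -1.38 ± 0.09, adjusted p = 1.36e-05). U343 RNASeq gave 336 and 368 against 273 and 218 (log2 -0.52 ± 0.14, adjusted p = 0.0748, or -0.70 ± 0.11 with adjusted p = 0.00349 without replicate 1). The test of the difference between the assays gave -0.86 ± 0.17 with an adjusted p of 0.196. In U251 RNASeq it fell 1.61-fold, from 417 and 375 to 267 and 225, and in U251 RIPSeq the controls stood at 47.9 and 163 around 109 and 107. TRIM3 and TRIM32, the other NHL members tested, were called in no miR-137 comparison, with log2 values between -0.20 and 0.28.

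TRIM37, TRIM44, TRIM24 and TRIM59 were further members called lower in U251 RNASeq, of which the calls of TRIM37 and TRIM44 held whichever library was left out. TRIM37, a ligase mutated in mulibrey nanism, went from 162 and 172 to 89.8 and 78.7 CPM (log2 -0.99 ± 0.13, adjusted p = 2.64e-05), and was at -0.28 on the log2 scale in U343 RIPSeq, a call that held in 1 of 4 fits with a library left out. TRIM44, which has no RING, went from 214 and 211 to 147 and 118 (log2 -0.68 ± 0.14). TRIM59, anchored in the endoplasmic reticulum, was at -0.44 in U251 RNASeq and -0.37 in U343 RIPSeq, calls that held in 0 and 1 of 4 such fits.

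Among the 4 chromatin cofactors, TRIM66 rose in U251 RNASeq and U343 RIPSeq. TRIM28 (KAP1), the corepressor of KRAB zinc finger proteins, had the most reads of all members in both lines and was called in no miR-137 comparison. It was at 299 and 288 CPM in the U251 RNASeq controls against 281 and 311, and at 487 and 508 in those of U343 against 396 and 378 (log2 -0.36 ± 0.09, adjusted p = 0.053). Without replicate 1 the U343 RNASeq value was -0.41 ± 0.10 and passed the test (adjusted p = 0.0204). TRIM33, a partner of SMAD4, was at 0.23 ± 0.08 on the log2 scale in U343 RIPSeq and TRIM24 at -0.38 ± 0.14 in U251 RNASeq, calls lost in 4 and 2 of 4 fits with a library left out. The rises of TRIM66 held in all of them and were 0.77 ± 0.18 in U251 RNASeq and 0.83 ± 0.15 in U343 RIPSeq. Of the proteins that work with TRIM28 in silencing, CBX5, which encodes heterochromatin protein 1 alpha, went from 617 and 589.6 to 137 and 112 CPM in U251 RNASeq and from 262 and 268 to 126 and 109.7 in U343 RIPSeq. CBX1, CBX3 and ATRX fell with it in both experiments, 4 of 7 tested in each, while SETDB1, CHD3 and CHD4 rose in U343 RIPSeq. Over all genes, 29.0% were called lower in U251 RNASeq and 27.8% in U343 RIPSeq, where 28.5% were higher. In U343 RNASeq CBX5 was at 319 and 304 CPM against 342 and 256, with overlapping groups, and CBX3 was the 1 of 7 called, lower.

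TRIM16, which has B-boxes but no RING and marks damaged membranes for autophagy, was the member with calls in opposite directions. In U251 RNASeq it fell 1.95-fold, from 67.2 and 72.7 to 34.7 and 36.8 CPM (adjusted p = 3.5e-05). In U343 RNASeq it rose 1.86-fold, from 66.3 and 71.8 to 146 and 111 (adjusted p = 0.0296), and in U343 RIPSeq 1.48-fold, from 74.1 and 68.9 to 121 and 91.8 (adjusted p = 0.00716). The control levels of the 2 lines were alike and the miR-137 levels lay on opposite sides of them. U251 RIPSeq gave 76.6 and 89.9 against 53.4 and 50.8 (log2 -0.68 ± 0.24, adjusted p = 0.231). Its shortened copy TRIM16L fell 3.76-fold in U251 RNASeq, from 46.8 and 55.9 to 15.2 and 12.2 CPM (log2 -1.91 ± 0.16, adjusted p = 5.59e-07), the largest fall of any member. In U343 RNASeq it was at 38.6 and 47.7 against 54.3 and 42.0, with overlapping groups. TRIM16 and TRIM16L are nearly identical over much of their length, and how reads that fit both were divided is not given in the sources used here, so their separate values are uncertain.

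**Figure D4:**
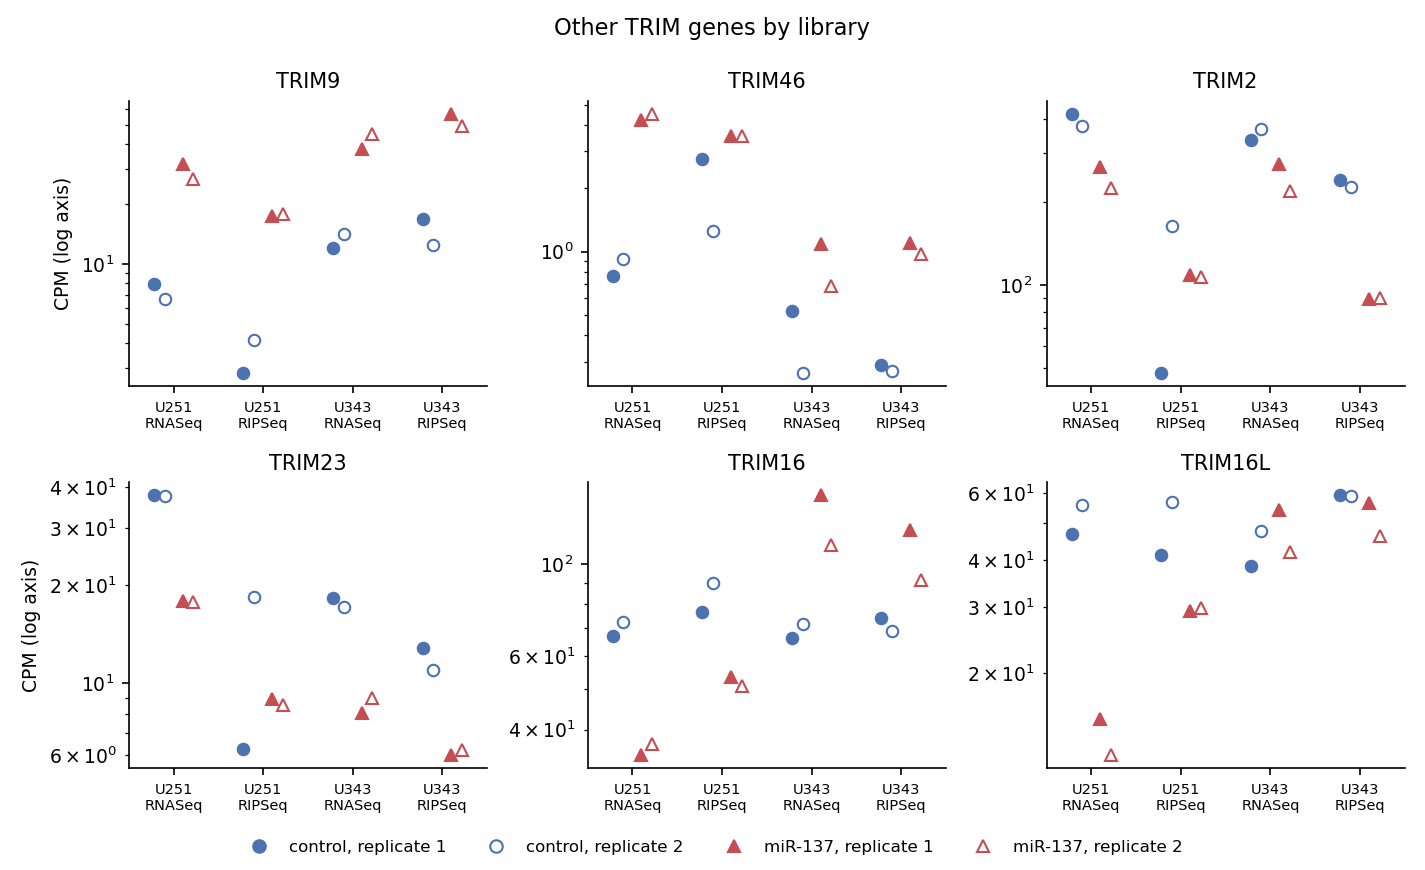
CPM of TRIM9, TRIM46, TRIM2, TRIM23, TRIM16 and TRIM16L in each library of the 4 experiments on log axes, with controls as circles, miR-137 libraries as triangles, replicate 1 filled and replicate 2 open. TRIM9 triangles lie above the circles in all 4 experiments, and TRIM16 triangles lie below them in U251 and above them in U343.

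The difference between lines was itself tested, although the lines were also sequenced from different library preparations, which cannot be told apart from the line. In RNASeq, 4 of 46 members had a response that was higher in U343 than in U251 and 5 one that was lower, against 12.5% and 12.7% of all genes. Higher were TRIM16L (log2 difference 2.06 ± 0.27), TRIM16 (1.86 ± 0.21), TRIM37 (1.01 ± 0.24) and TRIM44 (1.01 ± 0.23), all of which had fallen in U251. Lower were TRIM11 (-0.93 ± 0.20), TRIM47 (-0.82 ± 0.17), TRIM41 (-0.69 ± 0.17), TRIM35 (-0.65 ± 0.16) and TRIM45 (-0.65 ± 0.20), of which the first 4 had risen in U251. No interferon-linked member was among them. Without replicate 1 of the U343 miR-137 group, 17 of 45 members were called (16.3% of all genes higher and 16.4% lower), now with TRIM25 (1.43 ± 0.23), TRIM14 (1.26 ± 0.21), TRIM5 (0.89 ± 0.18) and TRIM38 (0.80 ± 0.20) as a stronger and TRIM22 (-0.90 ± 0.25) and TRIM56 (-0.54 ± 0.19) as a weaker response in U343. In RIPSeq the response of 3 members was higher in U343, against 2.06% of all genes, and of 0 lower, against 1.22%. These were TRIM65 (1.56 ± 0.27), TRIM25 (1.47 ± 0.24) and TRIM16 (1.30 ± 0.27), and the count was 0 when any miR-137 library or any U343 control was left out, 12 without U251 control replicate 1 and 26 without U251 control replicate 2, where 33.7% and 52.8% of all genes were called in either direction. In RNASeq the count of 9 fell to 2 without U251 control replicate 2 (12.4% of all genes) and to 5 and 3 without U343 control replicate 1 and 2 (13.1% and 12.2%). It was 22 without replicate 2 of the U343 miR-137 group (36.9%).

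Other members rose in U251 RNASeq or U343 RIPSeq, while TRIM7 and TRIM45 were called lower. TRIM11, a ligase known from neural cells, rose 2.06-fold in U251 RNASeq (12.7 and 12.4 to 25.9 and 26.0 CPM) and 1.82-fold in U343 RIPSeq (24.6 and 25.6 to 47.2 and 44.1). U343 RNASeq had 33.8 and 35.9 against 33.3 and 42.5, within the spread. TRIM62, a regulator of epithelial polarity, rose 2.36-fold in U251 RNASeq (5.69 and 4.28 to 11.4 and 12.2) and 1.93-fold in U343 RIPSeq (9.93 and 11.2 to 19.4 and 21.4). TRIM41 and TRIM35 rose in the same 2 experiments, with log2 fold changes of 0.98 and 0.82 in U251 RNASeq and of 0.47 and 0.66 in U343 RIPSeq. TRIM47 rose in U251 RNASeq (log2 0.61 ± 0.16) and TRIM65, which ubiquitinates the RNA sensor MDA5, rose in U343 RIPSeq (0.48 ± 0.10). TRIM65 was at 33.7 and 28.6 against 15.3 and 15.3 CPM in U251 RIPSeq, where it missed the threshold (adjusted p = 0.137). TRIM7, a partner of glycogenin, was at 1.64 and 1.87 against 0.922 and 1.15 in U343 RIPSeq, a call that held in 1 of 4 fits with a library left out, and TRIM45 fell in U343 RNASeq from 45.1 and 44.3 to 32.2 and 29.9. TRIM8, TRIM17, TRIM58 and TRIM68 were tested and called in no miR-137 comparison.

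In no experiment did 14 members pass the filter, of which 9 belong to sets of near-identical copies (TRIM43, TRIM48, TRIM49, TRIM50, TRIM60, TRIM64, TRIM73, TRIM74 and TRIM77). Of the muscle ligases TRIM54, TRIM55, TRIM63 and TRIM72, 2 passed the filter in U343 (TRIM54 and TRIM72) and 0 in U251, and none was called. Over all 8 libraries of a line, 18 members had under 50 reads in U251 and 14 in U343. TRIM10, TRIM15, TRIM26, TRIM27, TRIM31, TRIM39 and TRIM40 were not analysed here.

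The study's own rule called fewer members than edgeR in U251 RNASeq and in both U343 experiments, and more in U251 RIPSeq. It compares every control library with every miR-137 library (4 pairs) by Fisher's exact test and keeps a gene when all pairs give odds above 2 and an adjusted p below 0.001. It was run in both directions over all genes of a table. TRIM16L was the 1 member called lower in U251 RNASeq (2.21% of all genes) and TRIM2 the 1 in U343 RIPSeq (3.4%), with 0 in U251 RIPSeq (1.49%) and 0 in U343 RNASeq (2.88%). In the other direction it called 13 members in U251 RNASeq (6.14% of all genes), 7 in U251 RIPSeq (3.47%), 11 in U343 RIPSeq (4.83%) and 1, TRIM9, in U343 RNASeq (1.51%). Without replicate 1 of the miR-137 group the last became 10, which were TRIM9 and 9 interferon-linked members. Fisher's test on a pair of libraries compares those libraries and holds no replicate error.

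PABP-bound RNA was compared with total RNA in the control transfections, which shows how members entered the immunoprecipitate before miR-137 was raised. For this, CPM was scaled over both assays of a line, so it differs from the values above for the same libraries. In U251, 3 of 39 members were higher in the bound fraction and 2 lower, against 7.87% and 6.14% of all genes. In U343, 5 of 46 were higher and 13 lower, against 24.4% and 24.2%. In both lines TRIM8 and TRIM62 were higher. TRIM8, a regulator of cytokine signaling through SOCS1, was at 29.6 and 31.2 CPM in total and at 91.6 and 93.5 in bound RNA of U251 (log2 1.61 ± 0.31, adjusted p = 0.0311), and at 19.5 and 20.6 against 33.6 and 33.2 in U343 (log2 0.74 ± 0.08, adjusted p = 0.000388). TRIM62 was at 5.12 and 3.81 against 14.0 and 9.84 in U251 and at 4.82 and 4.37 against 10.4 and 11.7 in U343.

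TRIM47 was higher in bound RNA of U251, at 12.9 and 11.2 against 47.1 and 30.5 CPM, and TRIM16L, TRIM68 and TRIM29 in that of U343, the last with under 1 CPM throughout. TRIM6 and TRIM59 were lower in bound RNA of U251, by 3.18-fold and 3.21-fold. In U343 the lowest were TRIM17 (2.50-fold), TRIM7 (2.17-fold) and TRIM13 (2.02-fold), where TRIM13, an anchored ligase of the endoplasmic reticulum, went from 38.6 and 37.3 in total to 19.2 and 18.5 in bound RNA. It overlaps DLEU2 and KCNRG. No interferon-linked member was called in U343, and their median was 0.03. All 5 calls of U251 were lost when either RNASeq control library was left out, and the RIPSeq controls moved the counts. Without RIPSeq control replicate 1, 7 of 39 members were higher and 14 lower, against 28.0% and 27.0% of all genes, and without replicate 2 it was 15 and 17 of 42, against 38.8% and 37.1%. TRIM68, TRIM29 and TRIM58 were named after their values were seen.

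**Figure D5:**
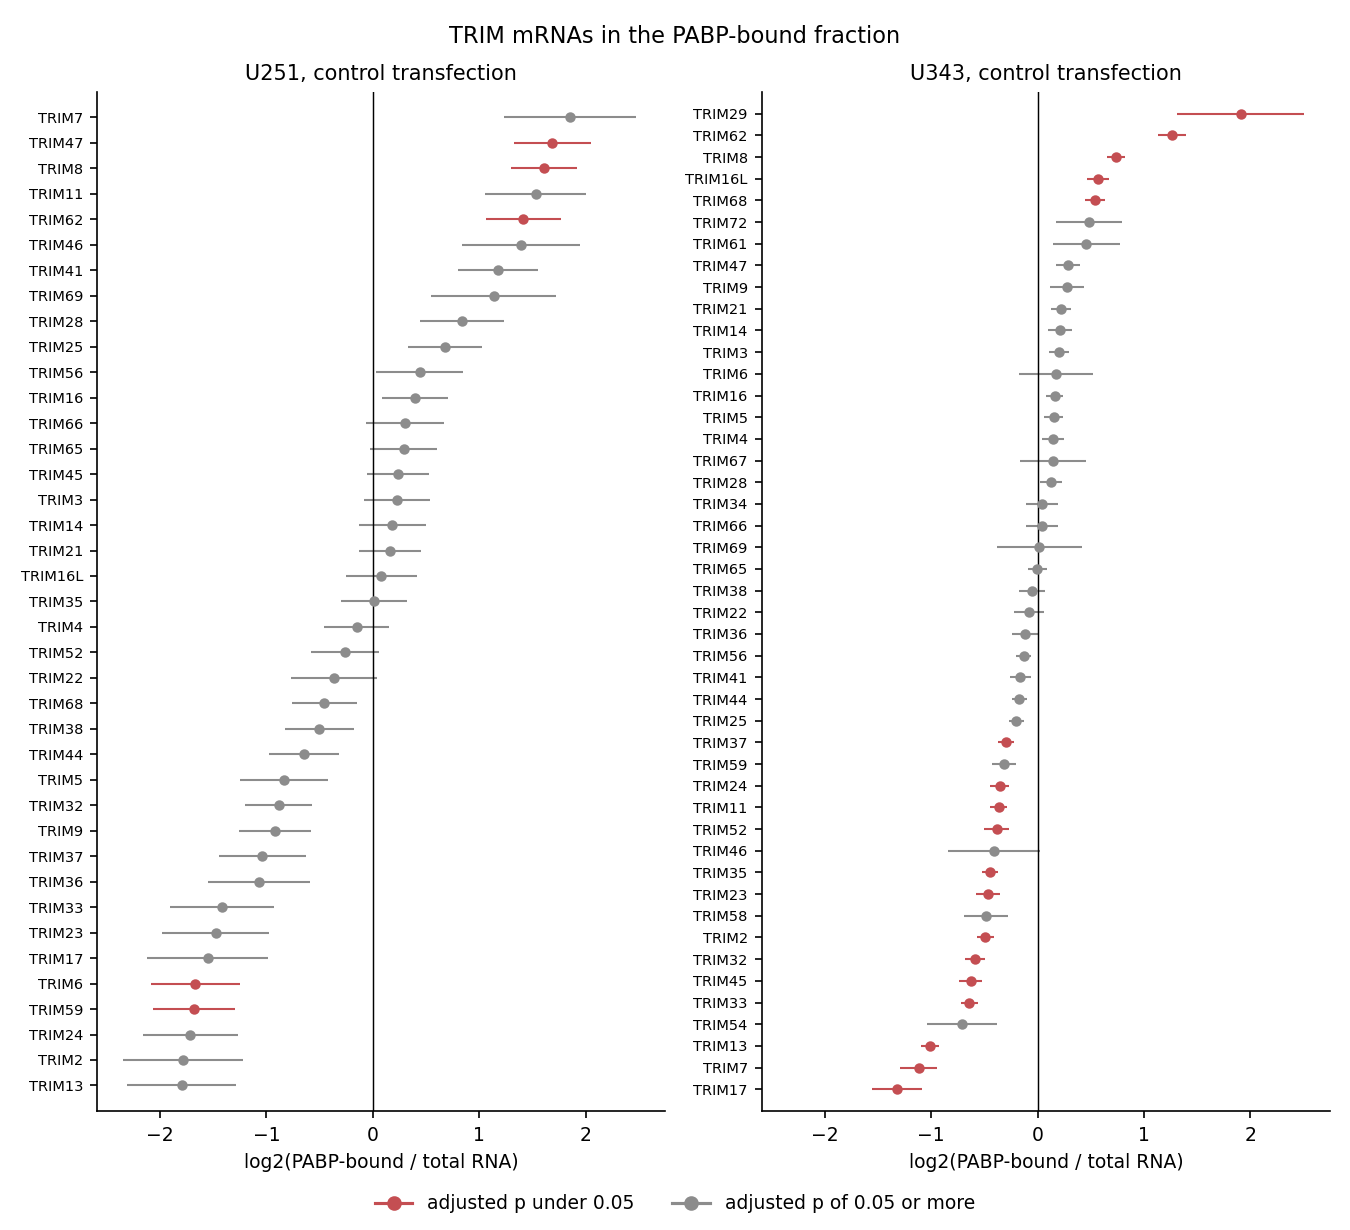
Log2 ratio of PABP-bound to total RNA in control-transfected U251 (left) and U343 cells (right) for the tested TRIM genes, with bars of 1 standard error and red for an adjusted p under 0.05. TRIM8 and TRIM62 are red on the right side in both lines, at 1.61 and 1.41 in U251 and at 0.74 and 1.26 in U343, and the bars are wider in U251.

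Whether miR-137 changed the bound and the total RNA of a member to a different degree was tested as an interaction. In edgeR 0 of 40 members were called in U251 (0.134% of all genes) and 0 of 46 in U343 (0.00649%). At an unadjusted edgeR p under 0.05 were 8 members in U251, among 2688 of all 14210 genes. In U343 it was 7 members, among 2712 of 15413 genes. DESeq2 called 2 members in each line, and its share over all genes is not given here. The members with the largest ratio of estimate to error were TRIM65 in U251 (log2 difference -1.11 ± 0.28, adjusted p = 0.122) and TRIM2 in U343 (-0.86 ± 0.17, adjusted p = 0.196). TRIM16L, which fell in U251 RNASeq, had a difference of 1.13 ± 0.32 (adjusted p = 0.154). In U251 the count was 8 of 40 without RIPSeq control replicate 1 and 30 of 42 without replicate 2, where 20.1% and 58.0% of all genes were called, and in U343 it was 15 of 46 without replicate 2 of the RNASeq miR-137 group, where 19.8% were.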

How the data were processed

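Counted reads of 16 libraries were analysed, grouped by the cell line, assay and mimic in their labels. The authors aligned reads to hg18 with RMAP and deposited raw counts per gene on merged RefSeq transcripts. Strand was not used, and levels are not compared between genes. SLC35E2 has a duplicate entry in the U251 tables, and the first was kept.

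Members, lists and alternatives were chosen with earlier results of these data known. Each comparison was fitted over all genes with edgeR 4.0.16 (filterByExpr, TMM, quasi-likelihood F test, Benjamini-Hochberg adjustment, threshold 0.05) in R 4.3.3. With 2 libraries against 2, an exact permutation test cannot go below 0.333, so single values were not tested that way. The p-values measure the spread between these libraries, which may be technical. No 2 libraries of a group were identical (mean chi-square per gene 2.64 to 255.0). Named by rule were all interferon-linked members, the TIF1, NHL and COS-box members tested, the 3 largest rises and falls past the threshold per experiment (at least 50 reads on average, same direction in all 4 pairs), members past the threshold of an interaction, and the 3 highest and 3 lowest in bound against total RNA per line. Alternatives were DESeq2 1.42.0 with its size factors, upper-quartile scaling, no filter, a minimum mean of 50 reads, a joint fit per line, the replicate number as a block, and each library left out. For the study's rule they were an odds ratio above 1.5 and TMM-scaled totals. The fits were tested on simulated counts.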

Additional observations from a re-analysis of the deposited data

Results flagged for a closer look

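For 12 results, the response of a member to miR-137 differed between the cell lines by the test of the difference itself (edgeR interaction term, U343 minus U251, on the log2 scale). In RNASeq it was higher in U343 for TRIM16L by 2.06 (adjusted p = 0.00205), TRIM16 by 1.86 (adjusted p = 0.0013), TRIM37 by 1.01 (adjusted p = 0.0177) and TRIM44 by 1.01 (adjusted p = 0.0145). The difference was -0.93 for TRIM11, -0.82 for TRIM47, -0.69 for TRIM41, -0.65 for TRIM35 and -0.65 for TRIM45, with adjusted p-values from 0.0118 to 0.0475. In RIPSeq it was 1.56 for TRIM65 (adjusted p = 0.0312), 1.47 for TRIM25 (adjusted p = 0.0276) and 1.3 for TRIM16 (adjusted p = 0.0482). Over all genes, 12.5% had a higher and 12.7% a lower response in U343 in RNASeq, and 2.06% and 1.22% in RIPSeq. The RIPSeq calls depended on which library was left out, as given above. TRIM16 was the member that differed in both assays. Reads that fit both TRIM16 and TRIM16L make the separate values of these members uncertain.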

How the results depend on the processing

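With 2 libraries per group, and with U251 RIPSeq controls that differ, single libraries decided many counts, and the cause was not tested. The share of all genes called also moved with the library left out, as given above for some fits. For the other alternatives that share is not given here, so the counts below describe the members alone. Members called higher in U251 RIPSeq (3) numbered 7 with DESeq2, 0 with no filter, 7 with the replicate block, 8 in the joint fit and 2 to 25 with a library left out, and lower (0) they numbered 2 in the joint fit and 0 to 13. In U343 RNASeq, higher (2) became 5 in the joint fit and 0 to 15 with a library left out, and lower (2) became 5 with DESeq2, 5 in the joint fit and 0 to 7. Lower in U343 RIPSeq (6) became 3 with DESeq2, 3 in the joint fit and 2 to 4, and lower in U251 RNASeq (10) became 3 in the joint fit. In bound against total RNA of U251, higher (3) became 6 with DESeq2, 0 with no filter, 7 with the replicate block and 0 to 15, and lower (2) became 7 with DESeq2, 0 with no filter, 1 with at least 50 reads, 8 with the replicate block and 0 to 17. The assay interaction (0 in both lines) became 2 with DESeq2 in each, 0 to 30 in U251 and 0 to 15 in U343. The line interaction became 2 to 22 in RNASeq (9), and in RIPSeq (3) 5 with DESeq2, 0 with the replicate block and 0 to 26. By the study's rule, lower in U251 RNASeq (1) became 5 with an odds ratio over 1.5, 2 with scaled totals and 1 to 2. Lower in U251 RIPSeq (0) became 1 and 0 to 4, in U343 RNASeq (0) 1 and 0 to 1, and in U343 RIPSeq (1) 2, while higher became 7 to 11 in U251 RIPSeq (7) and 1 to 10 in U343 RNASeq (1).

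Libraries of the groups share only a replicate number. The correlation of same-numbered deviations over 2 pairs was 0.06 in U251 RNASeq, -0.06 in U251 RIPSeq, 0.12 in U343 RNASeq and 0.40 in U343 RIPSeq. The replicate block gave 17 higher and 9 lower in U251 RNASeq, 3 and 1 in U343 RNASeq and 23 and 9 in U343 RIPSeq.

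Of 1456 values of single members compared, 1276 kept direction and side of the threshold and 10 reversed, all with 1 library left out. Over these fits the log2 fold change in U251 RIPSeq ran from -0.60 to 1.26 for TRIM2, -0.30 to 0.83 for TRIM11, -1.07 to 0.57 for TRIM23, -0.47 to 0.77 for TRIM24, -0.21 to 1.33 for TRIM33, -0.34 to 1.23 for TRIM36, -0.46 to 0.67 for TRIM37 and -0.13 to 0.46 for TRIM44, and in U343 RNASeq from -0.46 to 2.06 for TRIM5 and -0.71 to 2.76 for TRIM25.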
